A study of Mus musculus with 12 samples.

Results

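Gene expression in 0 Se liver was compared with that in 0 Se lung, using the 3 liver arrays and the 3 lung arrays of mice on the selenium-deficient diet, which are 6 of the 12 arrays of the series. They were chosen by the diet and tissue in their labels. The mice were male FVB/N animals that carried no engineered allele and went at weaning onto a torula yeast diet low in selenium. The diet had 0 ppm sodium selenite added (0 Se) for 6 weeks, and the other 6 arrays of the series came from liver and lung of mice whose diet had 0.1 ppm added (0.1 Se). Total RNA (100 ng) was labelled with biotin and hybridized to Affymetrix mouse genome arrays, on which each transcript is measured by a set of short probes near its 3′ end. The labels call the 3 arrays of a group biological replicates and do not say whether a liver and a lung of the same number came from the same mouse.

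Selenium is built into proteins as selenocysteine, at a UGA codon that is otherwise read as a stop. Liver takes up dietary selenium, makes selenoprotein P (Selenop) and exports it in plasma to other tissues. When selenium is short, the mRNAs and proteins of some selenoproteins, such as cytosolic glutathione peroxidase and selenoprotein W, fall more readily than others. Liver also runs the methionine cycle, transsulfuration, glucose output and bile acid synthesis, while lung is built of alveolar and airway epithelium, endothelium and matrix and faces oxygen directly.

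The main cell types of each labelled tissue were seen in their markers. Of 11 hepatocyte markers, 9 were blank on every lung array, and the summed signal of the list was 440852 to 541593 in liver against 216 to 984 in lung. The 7 markers of ciliated airway cells, the 8 of cardiac muscle and the 4 of mesothelium were blank on every liver array, and the summed signal of alveolar type 2 markers was 161668 to 193454 in lung and 5490 to 5999 in liver. Markers of lesser liver cell types were not all found in liver. Of 4 cholangiocyte markers, which airway epithelium also expresses, 3 were blank on every liver array, and their summed signal was 0 to 119 in liver and 10646 to 11972 in lung. Of 6 sinusoidal endothelium markers 5 were higher in liver or listed there only, while Lyve1, also a marker of lymphatic vessels, differed by -3.78 ± 0.23, higher in lung. Among the 5, Clec1b lost its call in 9 of 19 alternatives, with differences down to 0.24. The lung arrays differed from each other in cardiac muscle transcripts, whose summed signal ran from 4532 to 37891. The heavy chain Myh6, for example, had log2 signals of 9.26, 12.83 and 12.24 on lung arrays 1 to 3. Arrays of the same tissue correlated with r of 0.985 to 0.990 over the probe sets listed on the 6 arrays, against 0.651 to 0.673 between tissues. In such bulk RNA, fewer cells of a type and less RNA per cell cannot be told apart.

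The deposited values are log2 MAS5 signals, in which 1 unit is a 2-fold difference, and a cell is blank where a transcript was called absent or its signal lay under 100. Liver arrays listed 17490 to 17812 probe sets and lung arrays 22413 to 22640, of 29409 that were not controls. At least 2 values in each tissue were present for 15922 probe sets, which were tested with limma. Of these, 11845 (74.4%) differed at an adjusted p of 0.05, with 4930 (31%) higher in liver and 6915 (43.4%) higher in lung. At 2-fold or more the numbers were 2440 (15.3%) and 3571 (22.4%), and for 78.1% of the probe sets the arrays of liver and lung did not overlap. Counting each gene once, by its brightest probe set of a single gene, 8532 genes were tested, 2861 (33.5%) were higher in liver and 3704 (43.4%) higher in lung, and the median difference was -0.15. In all 76.9% of the genes passed. At 2-fold or more, 16.9% were higher in liver and 23.2% higher in lung. The p-values measure the spread between these arrays. Given that a difference between these tissues was the usual case, a count of calls in a gene list is read below against these shares.

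The direction of small differences depended on how the arrays were scaled. The median difference over all probe sets was -0.19 with the deposited scaling, -0.04 after quantile normalization over the probe sets listed on all 6 arrays, -0.44 after quantile normalization over all listed values and 0.04 after median centring. The split of calls between liver and lung was 4930 to 6915 as deposited, 5707 to 6093, 3781 to 8531 and 6093 to 5618 in these 4 settings, so that liver held 41.6%, 48.4%, 30.7% and 52% of the calls. Small differences are therefore given as values, most with their error. For the 221 genes followed through the alternatives, each change of sign under a scaling is named with the gene or in the closing section. Other genes, such as Tkt, Taldo1 and Keap1, are given with the deposited scaling only.

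The promoter sequences of 5 genes are shown first because they carry 3 DNA motifs counted below. They are the 250 bases before the annotated start in RefSeq (build GRCm38.p6), written 5′ to 3′ on the strand of the gene. Gclm, the modifier subunit of the enzyme that starts glutathione synthesis, was higher in liver, and Txnrd1, the cytosolic thioredoxin reductase and itself a selenoprotein, did not pass the test. The capitals in both mark TGACNNNGC, the core of the antioxidant response element bound by NRF2, here found on the reverse strand. The Gclm window lies at chr3:122245307-122245556 (+ strand) and the Txnrd1 window at chr10:82858956-82859205 (+ strand), the only annotated start of that gene with a match.
Gclm: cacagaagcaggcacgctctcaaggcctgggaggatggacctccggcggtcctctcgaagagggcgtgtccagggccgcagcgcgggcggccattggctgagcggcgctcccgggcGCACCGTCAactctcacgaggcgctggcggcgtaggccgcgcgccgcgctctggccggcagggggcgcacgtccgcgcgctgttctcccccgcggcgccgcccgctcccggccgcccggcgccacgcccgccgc
Txnrd1: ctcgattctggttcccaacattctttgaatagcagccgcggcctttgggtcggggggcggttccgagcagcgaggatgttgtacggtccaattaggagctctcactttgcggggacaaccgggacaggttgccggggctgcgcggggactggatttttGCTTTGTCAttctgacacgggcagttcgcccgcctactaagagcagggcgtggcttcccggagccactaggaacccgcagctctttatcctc
Sephs2, the selenoprotein with the largest difference, lies at chr7:127274060-127274309 (- strand), and the capitals mark a TATAAA.
Sephs2: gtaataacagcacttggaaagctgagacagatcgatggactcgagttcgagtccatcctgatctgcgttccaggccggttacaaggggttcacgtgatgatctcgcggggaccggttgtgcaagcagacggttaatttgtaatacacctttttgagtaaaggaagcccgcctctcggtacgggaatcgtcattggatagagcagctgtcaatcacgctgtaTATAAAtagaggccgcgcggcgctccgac
G6pc, glucose-6-phosphatase, at chr11:101367466-101367715 (+ strand), and Afm, the plasma protein afamin, at chr5:90518699-90518948 (+ strand), were listed in liver only, and the capitals mark a motif of the liver factor HNF1, in which the seventh base may be any.
G6pc: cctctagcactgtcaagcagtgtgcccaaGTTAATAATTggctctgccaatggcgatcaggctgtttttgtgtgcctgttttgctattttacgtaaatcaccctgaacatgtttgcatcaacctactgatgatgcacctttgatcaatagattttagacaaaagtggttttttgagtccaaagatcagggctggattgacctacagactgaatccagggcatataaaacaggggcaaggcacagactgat
Afm: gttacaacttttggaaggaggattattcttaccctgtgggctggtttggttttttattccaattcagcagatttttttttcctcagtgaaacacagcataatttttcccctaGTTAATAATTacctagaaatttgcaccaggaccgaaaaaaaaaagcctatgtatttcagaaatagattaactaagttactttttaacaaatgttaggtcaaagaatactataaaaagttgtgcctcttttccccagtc

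Of the 24 mouse selenoprotein genes, 22 had a probe set of a single gene, and 15 of these were tested. In 0 Se mice 7 were higher in liver and 4 higher in lung, against 33.5% and 43.4% of all genes, and 4 did not pass. The median difference of the 15 was 0.15. It changed sign to -0.35 after quantile normalization over all listed values and to -0.03 with blanks set to the lowest value, so the list as a whole had no settled direction. Dio1 was listed in liver only, Dio2, Gpx2, Gpx3 and Selenon in lung only, and Txnrd2 and Selenom had too few values in one tissue. Dio3 and Selenov were not analysed here.

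Sephs2 makes selenophosphate, the selenium donor for selenocysteine, and is a selenoprotein itself. Its log2 signals were 14.61, 14.64 and 14.84 in liver and 9.77, 9.90 and 9.83 in lung. The liver arrays were all far above the lung arrays, with a difference of 4.87 ± 0.08 (SE, n = 3 arrays per tissue), or 29.2-fold (adjusted p = 9.91e-12). Its other probe sets gave differences of at least 3.06.

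Msrb1, a methionine sulfoxide reductase that contains selenocysteine, gave 12.46, 12.38 and 12.59 in liver and 9.34, 9.39 and 9.06 in lung. The groups did not overlap, and liver was 9.27-fold higher (3.21 ± 0.11, adjusted p = 4.75e-10). Selenoo, a mitochondrial protein that attaches AMP to other proteins, was 4.12-fold higher in liver (2.04 ± 0.11). Selenoi, an enzyme of phosphatidylethanolamine synthesis, was 4.1-fold higher by its brightest probe set (2.03 ± 0.11), but 1 of its 4 probe sets gave -0.30.

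Gpx1, the cytosolic glutathione peroxidase, had log2 signals of 14.61, 14.58 and 14.94 in liver and 13.01, 12.88 and 13.26 in lung. Even on the deficient diet liver was 3.16-fold higher (1.66 ± 0.12, adjusted p = 2.21e-07), without overlap. Selenop gave 15.43, 15.52 and 15.68 in liver and 14.60, 14.71 and 14.82 in lung, a difference of 0.83 ± 0.09 or 1.78-fold (adjusted p = 8.01e-06). It stayed above 0 under every scaling, from 0.26 after quantile normalization over all listed values to 1.06 after median centring. Gpx4, which reduces lipid peroxides in membranes, was 0.59 ± 0.09 higher in liver, but -0.24 after quantile normalization over all listed values.

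Selenow, a small protein with a thioredoxin-like fold, had the largest difference toward lung. Its log2 signals were 8.40, 8.88 and 8.97 in liver and 10.96, 10.71 and 11.50 in lung, so that all lung arrays were above all liver arrays by a mean of 2.31 ± 0.20 (4.95-fold, adjusted p = 1.37e-06). The probe set ends in _x_at and may bind related transcripts, but the gene's other probe set was listed on the 3 lung arrays and on no liver array. Txnrd3, a thioredoxin reductase with a glutaredoxin domain, differed by -1.33 ± 0.13. Selenok, a membrane protein of the endoplasmic reticulum, had 12.13, 11.75 and 12.31 in liver against 12.93, 12.93 and 12.88 in lung (-0.85 ± 0.12, adjusted p = 7.46e-05). Selenoh, a nucleolar protein, differed by -0.55 ± 0.14 (adjusted p = 0.00478). That call was lost after quantile normalization over the probe sets listed on all 6 arrays (-0.30, adjusted p = 0.0803) and after median centring (-0.33, adjusted p = 0.0549).

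Txnrd1 had log2 signals of 10.57, 10.72 and 10.71 in liver and 10.77, 10.64 and 10.68 in lung. The tissues overlapped, and the difference was -0.02 ± 0.09 (adjusted p = 0.812), within -0.35 to 0.20 over the scalings. Selenot and Selenof, both of the endoplasmic reticulum, differed by -0.04 ± 0.08 and -0.16 ± 0.07, and Selenos of the same compartment by 0.15 ± 0.08. None of these 4 passed with the deposited scaling, but their direction depended on it. After quantile normalization over all listed values all 4 passed toward lung, Selenof at -0.96, Selenot at -0.84, Selenos at -0.63 and Txnrd1 at -0.35. After median centring Selenof (0.063), Selenot (0.19) and Txnrd1 (0.20) turned positive without passing, and Selenos passed toward liver at 0.37. Selenof, whose arrays did not overlap, also passed toward lung in some other settings, such as the methods' t-test (adjusted p = 0.0239).

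The deiodinases and secreted or epithelial peroxidases were split by tissue. Dio1, which makes active thyroid hormone in liver, was listed at 12.59, 12.85 and 12.80 in liver and on no lung array. Gpx3, the plasma glutathione peroxidase, was listed at 11.88, 11.82 and 12.27 in lung and on no liver array. Gpx2, the glutathione peroxidase of epithelia, had 9.66, 9.43 and 9.80 in lung only, and Selenon, needed by muscle, 8.08, 7.78 and 7.91. Dio2, the other activating deiodinase, was near the lower end of the table in lung (7.21, 7.62 and 6.97), and a second probe set of it was listed on 1 liver array. Selenom had 9.41, 9.32 and 9.19 in lung and a single liver value of 6.92. For the mitochondrial reductase Txnrd2 the probe sets disagreed, since 1 was tested and gave 1.54 toward liver while 2 others were listed in lung only.

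**Figure D1:**
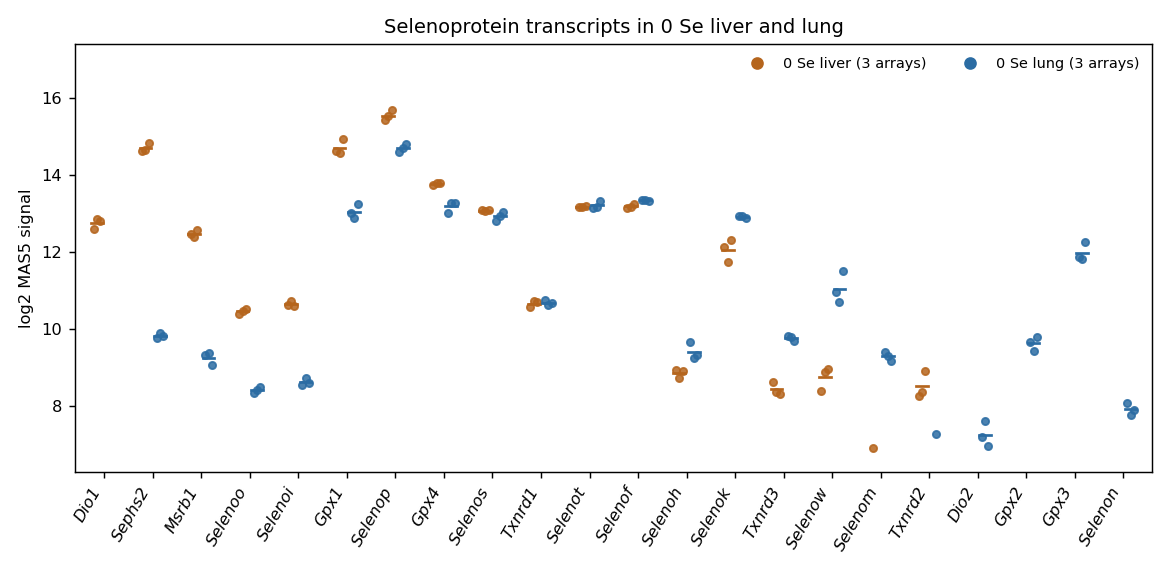
Log2 MAS5 signal (vertical axis) of the 22 selenoprotein genes with a probe set of a single gene, on the 3 arrays of 0 Se liver (brown) and of 0 Se lung (blue). Points are arrays, lines are means of 2 or more values, and a blank cell has no point; Sephs2 lies near 14.6 to 14.8 in liver and below 10 in lung, and Selenow shows the opposite order.

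Of 9 tested genes for selenium uptake and selenocysteine synthesis, 4 (44.4%, against 33.5% of all genes) were higher in liver, 1 was higher in lung and 4 did not pass. The median of 0.18 turned to -0.084 after quantile normalization over all listed values and to -0.067 with blanks at the lowest value. Scly, which frees selenium from selenocysteine, was 2.09 ± 0.15 higher in liver. Eefsec, the elongation factor for selenocysteine, and Sepsecs, which makes the final step on its tRNA, were both 1.53 higher in liver (SE 0.16 and 0.11). Sephs1, a relative of Sephs2 without selenocysteine, differed by 0.41 ± 0.10, a call lost after quantile normalization over all listed values (0.16, adjusted p = 0.174). Secisbp2l, a paralogue of the protein that binds the selenocysteine insertion element of the mRNA, was 0.69 ± 0.10 lower in liver, and that protein itself, Secisbp2, differed by -0.09 ± 0.20 without passing, with a sign that turned under 2 scalings. Trnau1ap, Sars and Ncl, at 0.18, -0.07 and -0.15, did not pass either, and each changed sign under at least 1 scaling. Of 19 alternatives, Trnau1ap gained a call in the same direction in 4, Ncl in 2 (down to -0.79) and Sars in 1. The endocytic Selenop receptor Lrp2 was listed in lung only (9.32, 9.28 and 8.98). Of the genes for selenium binding and methylation, Inmt, a methyltransferase, and Selenbp1, the selenium-binding protein, were 0.65 ± 0.10 and 0.46 ± 0.09 lower in liver (Selenbp1 lost its call in 1 of 19 alternatives, adjusted p = 0.0559), Nnmt differed by 0.12 ± 0.24 without passing, and the thiopurine methyltransferase Tpmt was listed in liver only.

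Enzymes that remove superoxide and peroxide without selenium were mostly higher in liver, in 6 of 7 tested genes (85.7%, against 33.5% of all genes). Catalase (Cat) had log2 signals of 14.99, 15.24 and 15.20 in liver and 13.09, 12.86 and 12.68 in lung, a difference of 2.26 ± 0.11 or 4.81-fold. The superoxide dismutases Sod1 of the cytosol and Sod2 of mitochondria were 1.38 ± 0.08 and 1.43 ± 0.07 higher in liver, and the peroxiredoxins Prdx4 and Prdx3 by 2.04 and 1.29. Gpx7 was the exception among the tested genes, 2.14 ± 0.18 higher in lung, with liver values of 7.36 and 7.14 and a blank. Its relative Gpx8 was listed in lung only (10.87, 10.96 and 10.82), and so was the extracellular superoxide dismutase Sod3 (8.52, 8.27 and 7.86). The median of the 7 tested genes was 1.38, against -0.15 over all genes.

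Among thioredoxins, glutaredoxins and methionine sulfoxide reductases, 10 of 14 tested genes (71.4%, against 33.5% of all genes) were higher in liver. Another 3 (21.4%, against 43.4%) were higher in lung. Msra, which repairs the S form of methionine sulfoxide, gave 12.58, 12.67 and 12.76 in liver and 8.74, 9.07 and 8.81 in lung (13.9-fold, adjusted p = 1.27e-10). Its counterpart for the R form in the endoplasmic reticulum, Msrb3, went the other way, with 8.37, 8.06 and 7.93 in liver and 11.09, 11.14 and 11.05 in lung (-2.97 ± 0.13, 7.86-fold). The mitochondrial Msrb2 was 1.09 ± 0.18 higher in liver, as was the selenoprotein Msrb1. Mitochondrial Txn2, Glrx5 and cytosolic Glrx were each about 2.2 higher in liver (2.19, 2.18 and 2.19). Txn1 and its relative Txnl1 were 0.75 and 0.68 higher as deposited, and -0.07 and -0.11 after quantile normalization over all listed values. Txnip, which binds and inhibits thioredoxin, was 2.88 ± 0.10 higher in lung, and the nucleoredoxin Nxn 1.21 ± 0.17.

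Each measured enzyme of glutathione synthesis itself was higher in liver. The catalytic and modifier subunits of glutamate-cysteine ligase, Gclc and Gclm, were 1.39 ± 0.10 and 2.84 ± 0.09 higher, glutathione synthetase (Gss) 1.61 ± 0.13 and glutathione reductase (Gsr) 0.94 ± 0.11. Gclm, whose promoter is shown above, had log2 signals of 13.39, 13.51 and 13.55 in liver and 10.52, 10.64 and 10.78 in lung, a gap of 7.14-fold. In all, 9 of 10 tested genes of synthesis and turnover (90%, against 33.5% of all genes) were higher in liver. Among them were the peptidase Lap3 at 3.24 and the cyclotransferase Chac2 at 2.98. Only the dipeptidase Cndp2 was higher in lung (-0.82 ± 0.10). The membrane dipeptidase Dpep1 was listed in lung only (10.77, 10.53 and 10.81), and the cystine transporter Slc7a11 was blank on all 6 arrays.

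The glutathione transferases, which join glutathione to foreign compounds, were higher in liver in 16 of 18 tested genes (88.9%, against 33.5% of all genes). Of the 18, 14 were higher there by 2-fold or more, against 16.9% of all genes. Gstm3 had 12.67, 12.93 and 12.93 in liver and 2 lung values of 7.39 and 7.26 (5.52 ± 0.12). Gstz1 was 4.46 ± 0.09 higher, and Gsta3, the abundant Gstp1 and Gstm1 by 3.19, 2.31 and 2.28. Members of this family resemble each other in sequence, so the probe sets may read more than 1 of them. Mgst3, a microsomal member, was 0.95 ± 0.13 higher in lung, and Mgst2 was listed in lung only.

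Genes of the NRF2 pathway were not uniform. Of 18 tested, 13 (72.2%, against 33.5% of all genes) were higher in liver, 2 (11.1%, against 43.4%) higher in lung and 3 did not pass. Malic enzyme Me1 (3.65 ± 0.12), biliverdin reductase Blvrb (3.46 ± 0.13), Osgin1 (3.25 ± 0.22) and the exporter Abcc3 (3.17 ± 0.12) led toward liver. Nfe2l2, which encodes NRF2, was 0.66 ± 0.10 higher in lung, and its repressor Keap1 was 0.55 ± 0.10 higher in liver. Ptgr1, which clears reactive aldehydes and eicosanoids, gave 8.15, 8.27 and 7.85 in liver and 11.13, 11.19 and 11.29 in lung (-3.11 ± 0.13, 8.66-fold). The classical targets Hmox1 and Nqo1 were low in both tissues, at 7.46, 7.35 and 7.72 against 7.58, 6.79 and 6.90 for Hmox1 and 7.84, 7.49 and 8.11 against 7.57, 7.84 and 7.52 for Nqo1. They differed by 0.42 ± 0.22 and 0.17 ± 0.19, and both groups overlapped. Abcc2 was listed in liver only, and Cbr3 and Abcc4 in lung only. A TGACNNNGC on either strand lay within the 250 bases before a start in 7 of 21 genes of the list with a promoter (Gclm, Txnrd1, Ugdh, Nfe2l2, G6pdx, Abcc2 and Abcc4), in 2 of the 24 selenoproteins (Txnrd1 and Selenok) and in 13.8% of the 11017 genes on the array that had one. The 7 genes with a match included ones higher in liver, higher in lung, listed in a single tissue and not different.

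NADPH feeds both the thioredoxin and the glutathione reductases. Of its supply 12 of 15 tested genes (80%, against 33.5% of all genes) were higher in liver. Aldh1l1 of the folate route had 14.11, 14.03 and 14.14 in liver and 8.10, 8.28 and 8.30 in lung (5.87 ± 0.09, 58.5-fold). The mitochondrial kinase Nadk2 was 3.66 ± 0.14 higher, cytosolic Idh1 2.44 ± 0.08 and the transhydrogenase Nnt 1.49 ± 0.09. In the oxidative branch of the pentose phosphate pathway H6pd and Pgls were 1.40 ± 0.11 and 1.14 ± 0.10 higher in liver, and Pgd differed by -0.04 ± 0.10 without passing. In the other branch Tkt and Taldo1 were 0.56 and 0.58 higher in liver. Rpia was 1.06 ± 0.15 higher in lung, and the mitochondrial malic enzyme Me2 was listed in lung only.

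Among enzymes that produce superoxide or hydrogen peroxide, some were higher in each tissue. Of 13 tested genes 6 (46.2%, against 33.5% of all genes) were higher in liver and 7 (53.8%, against 43.4%) higher in lung. Both shares were not far from those of all genes. Liver was higher for peroxisomal and aldehyde oxidases: Acox2 by 4.65 ± 0.15 and Aox3 by 2.25 ± 0.09, while urate oxidase Uox (15.18, 15.26 and 15.37) and glycolate oxidase Hao1 (14.10, 14.30 and 14.28) were listed in liver only. Lung was higher for subunits of the phagocyte NADPH oxidase, namely Cyba (8.80, 8.01 and 8.40 in liver against 11.02, 11.03 and 10.86, or 5.92-fold), Ncf1 (-1.81 ± 0.14) and Rac2 (-1.28 ± 0.23), and for xanthine dehydrogenase Xdh (-1.26 ± 0.14). The catalytic subunit Cybb differed by -0.51 ± 0.21 (adjusted p = 0.0438) with arrays that overlapped. Of the monoamine oxidases, Maob was 2.56 ± 0.08 higher in liver and Maoa 1.34 ± 0.11 higher in lung. Lox, which crosslinks collagen and elastin, was listed in lung only (11.05, 11.13 and 11.33).

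Sulfur amino acid metabolism, which delivers cysteine for glutathione, showed some of the widest gaps. Mat1a, the liver enzyme that makes S-adenosylmethionine, had log2 signals of 14.38, 14.32 and 14.50 in liver and 7.09, 7.34 and 7.23 in lung (7.18 ± 0.10, 145-fold). Gnmt, which uses up excess S-adenosylmethionine, had 15.00, 14.98 and 15.25 against 8.46, 7.59 and 7.99 (7.06 ± 0.18, 133-fold). Ahcy was 4.96 ± 0.11 higher and cystathionine lyase Cth 4.93 ± 0.21, and the cysteine oxidase Cdo1 and the taurine enzyme Csad 2.65 and 2.47. In all, 13 of 17 tested genes (76.5%) were higher in liver, each by 2-fold or more. Of all genes 33.5% were higher in liver, and 16.9% by 2-fold or more. Bhmt, Bhmt2, Pemt and Baat were listed in liver only. Cbs, the first enzyme of transsulfuration, had 12.37, 11.94 and 12.13 in liver and a single lung value of 6.87. The 3 genes higher in lung were the taurine transporter Slc6a6 (-0.81 ± 0.08), Mat2b (-0.76 ± 0.11) and Ado (-0.35 ± 0.11). The Ado call was lost after median centring (-0.13, adjusted p = 0.277) and after quantile normalization over the probe sets listed on all 6 arrays (-0.15, adjusted p = 0.208).

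Metal handling was divided between the tissues. The iron hormone hepcidin (Hamp) had 15.13, 14.87 and 14.83 in liver and 2 lung values of 7.85 and 7.29 (7.37 ± 0.16), and ferroportin (Slc40a1), the iron exporter it controls, was 4.94 ± 0.13 higher in liver. The transferrin receptor Tfrc was 3.02-fold higher in lung, and Tfr2, hemopexin (Hpx) and Hamp2 were listed in liver only, although a second probe set of Tfr2 had 1 lung value. Of the ZIP transporters, Slc39a14 was 3.29 ± 0.10 higher in liver and Slc39a8 1.94 ± 0.07 higher in lung. Of the copper pumps, Atp7a was 2.69 ± 0.09 higher in lung, while Atp7b differed by -0.14 ± 0.15 without passing. Metallothionein Mt1 varied among liver arrays (12.08, 11.20 and 12.10) and overlapped lung (10.74, 10.79 and 11.28) at a difference of 0.85 ± 0.22, and Mt2 did not pass (0.20 ± 0.25).

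**Figure D2:**
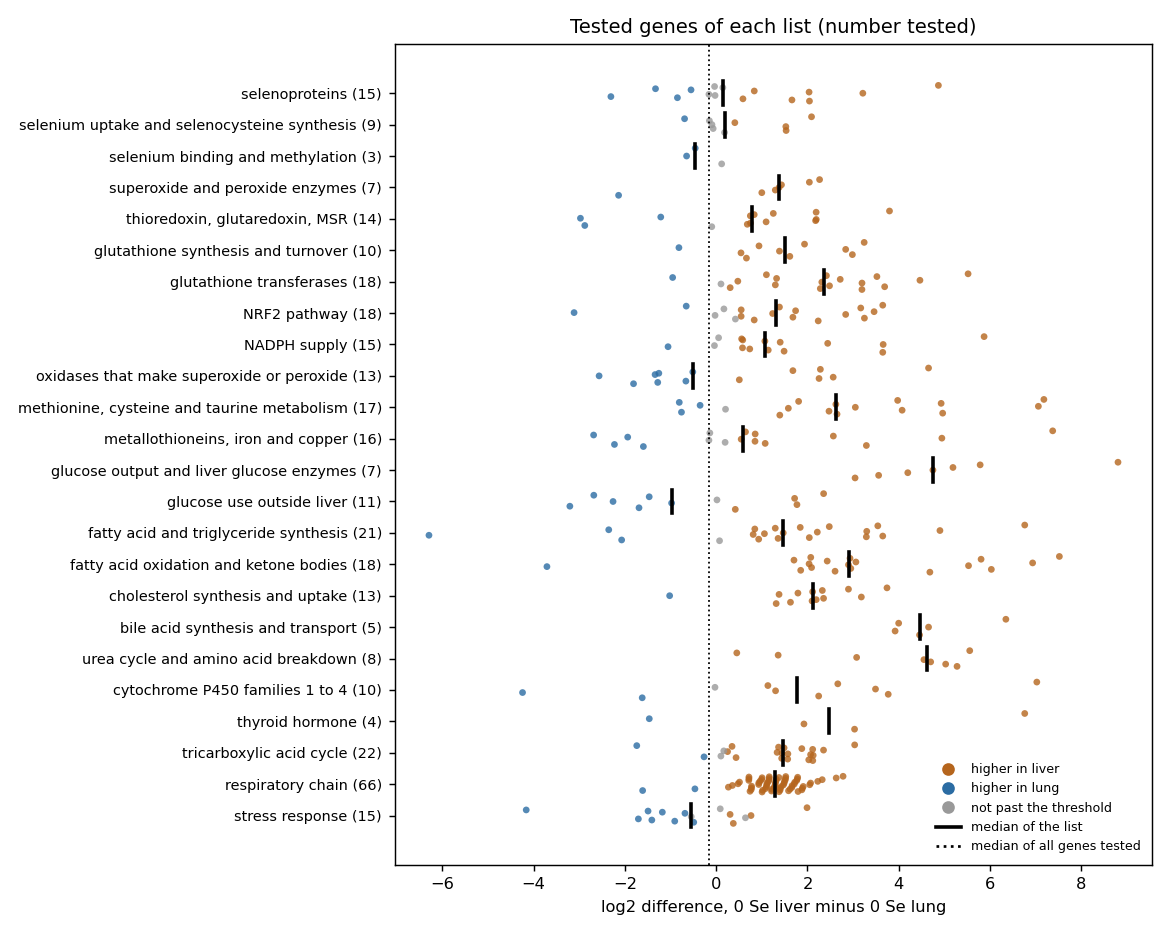
Each point is a tested gene, placed by its log2 difference of 0 Se liver minus 0 Se lung (horizontal axis) in the row of its list, with the number tested in brackets. Black bars are list medians and the dotted line is the median of all tested genes, -0.15; bile acid, urea cycle and glucose output genes lie farthest toward liver, and the stress, oxidase, selenium binding and peripheral glucose lists have medians below that of all genes.

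Genes of glucose output were higher in liver. All 7 tested genes were higher there by 2-fold or more, against 16.9% of all genes. Another 6 of 14 measured genes were listed in liver only, against 603 of 13710 over all genes. They included G6pc (13.17, 13.45 and 12.93), the glucose transporter Slc2a2 (14.69, 14.75 and 14.86) and glycogen synthase Gys2 (12.15, 12.65 and 12.72). Fbp1, the regulated step of gluconeogenesis, had 15.41, 15.50 and 15.62 in liver, 2 lung values of 6.76 and 6.65 and a blank on the third lung array. The gap of 447-fold rests on lung values next to the lowest in the table, so its exact size is not settled by these arrays. Khk, which phosphorylates fructose, was 5.78 ± 0.10 higher and pyruvate carboxylase (Pcx) 4.20 ± 0.09. Pck1 had 14.16, 14.37 and 14.94 in liver and a single lung value of 7.38.

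For the glucose genes typical of other tissues, 6 of 11 tested (54.5%, against 43.4% of all genes) were higher in lung. In liver 4 (36.4%, against 33.5%) were higher, so both shares were not far from those of all genes. The hexokinases Hk1 and Hk2 were 2.26 ± 0.16 and 1.69 ± 0.19 higher in lung, pyruvate kinase Pkm 2.68 ± 0.18, and the transporter Slc2a1 0.98 ± 0.15. Ldhb gave 8.49, 8.64 and 8.56 in liver and 11.65, 11.78 and 11.87 in lung (-3.21 ± 0.10, 9.23-fold), whereas Ldha was 1.72 ± 0.07 higher in liver. Pfkp and Slc2a3 were listed in lung only, and Pklr, the pyruvate kinase of liver, in liver only. The median of the list, -0.98, became 0.22 when 3 values in each tissue were required, which left out Hk1, Hk2 and Pkm.

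Lipid synthesis was higher in liver in 17 of 21 tested genes (81%, against 33.5% of all genes). Thrsp, a thyroid hormone responsive lipogenic gene, had 15.16, 15.17 and 15.32 in liver and 7.78, 9.33 and 8.25 in lung (6.76 ± 0.29, 108-fold), and Dgat2, which completes triglycerides, was 4.90 ± 0.14 higher. Fasn was 2.56-fold and Acaca 2.08-fold higher in liver, so that fatty acid synthase itself differed less than Thrsp and Dgat2. Of the stearoyl-CoA desaturases, Scd1 was 1.29 ± 0.10 higher in liver (15.50, 15.65 and 15.74 against 14.48, 14.37 and 14.16). Scd2 was 78.4-fold higher in lung, with 14.14, 13.96 and 14.24 there and 8.25, 7.46 and 7.75 in liver (-6.29 ± 0.17). Elovl1 and lipoprotein lipase (Lpl) were also higher in lung, by 2.07 ± 0.11 and 2.35 ± 0.20.

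Fatty acid oxidation was higher in liver in 17 of 18 tested genes (94.4%), all 17 by 2-fold or more. Of all genes 33.5% were higher in liver, and 16.9% by 2-fold or more. The fatty acid transporter and acyl-CoA synthetase Slc27a2 had 15.15, 15.32 and 15.46 in liver and 7.79, 7.96 and 7.63 in lung (7.52 ± 0.11, 183-fold). The peroxisomal Ehhadh was 6.03 ± 0.11 higher, the regulator Ppara 4.68 ± 0.13 and mitochondrial Cpt1a 1.85 ± 0.11. The exception was Oxct1, which lets tissues other than liver burn ketone bodies, with 7.81, 7.83 and 8.04 in liver and 11.61, 11.68 and 11.51 in lung (-3.71 ± 0.11, 13.1-fold). Bdh1, another gene of the list, was 5.80 ± 0.10 higher in liver.

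Of 13 tested genes of cholesterol synthesis and uptake, 12 (92.3%) were higher in liver, each by 2-fold or more. Of all genes 33.5% were higher in liver, and 16.9% by 2-fold or more. The 12 ran from Mvd at 1.31 ± 0.24 to Sc5d at 3.74 ± 0.11. Srebf2, which encodes the factor that drives these genes, was 1.02 ± 0.22 higher in lung. In bile acid synthesis and transport the 5 tested genes were all higher in liver, against 33.5% of all genes, with Cyp7b1 at 6.35 ± 0.13. Another 10 of 16 measured genes were listed in liver only, against 603 of 13710 over all genes. They included Cyp7a1, the rate-limiting enzyme (11.21, 11.33 and 10.69), and the uptake carrier Slc10a1 (14.72, 14.86 and 14.96). In the urea cycle and amino acid breakdown 8 of 8 tested genes were higher in liver, against 33.5% of all genes. Another 17 of 28 measured genes were listed in liver only, against 603 of 13710 over all genes. The 17 included Cps1 (15.27, 15.18 and 15.46) and Arg1 (15.08, 15.15 and 15.42). Arg2, the mitochondrial arginase, was listed in lung only (7.48, 7.35 and 7.92).

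Of 38 measured cytochrome P450 and partner genes, 24 were listed in liver only, against 603 of 13710 over all genes. Examples are Cyp3a11 (15.68, 15.83 and 16.06) and Cyp2c29 (15.64, 15.74 and 15.95). Cyp2s1 and Cyp1b1 were listed in lung only. Cyp2e1 was 7.02 ± 0.37 higher in liver, with lung arrays that spread over 7.75, 9.77 and 8.65. Cyp4b1 was 18.9-fold higher in lung (-4.24 ± 0.10), and Cyp2b10 gave 11.68, 11.06 and 12.02 in liver and 13.11, 13.06 and 13.45 in lung (-1.62 ± 0.20). Cyp2f2, which is also a marker of club cells, was high in both tissues, with 14.94, 15.05 and 15.22 in liver against 14.97, 14.97 and 15.33 in lung, and its difference was -0.03 ± 0.11. Among thyroid hormone genes, Rxra was 3.03 ± 0.11 higher in liver and the receptor Thra 1.47 ± 0.19 higher in lung, while the receptor Thrb was listed in liver only, with 2 values (6.74 and 6.91).

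**Figure D3:**
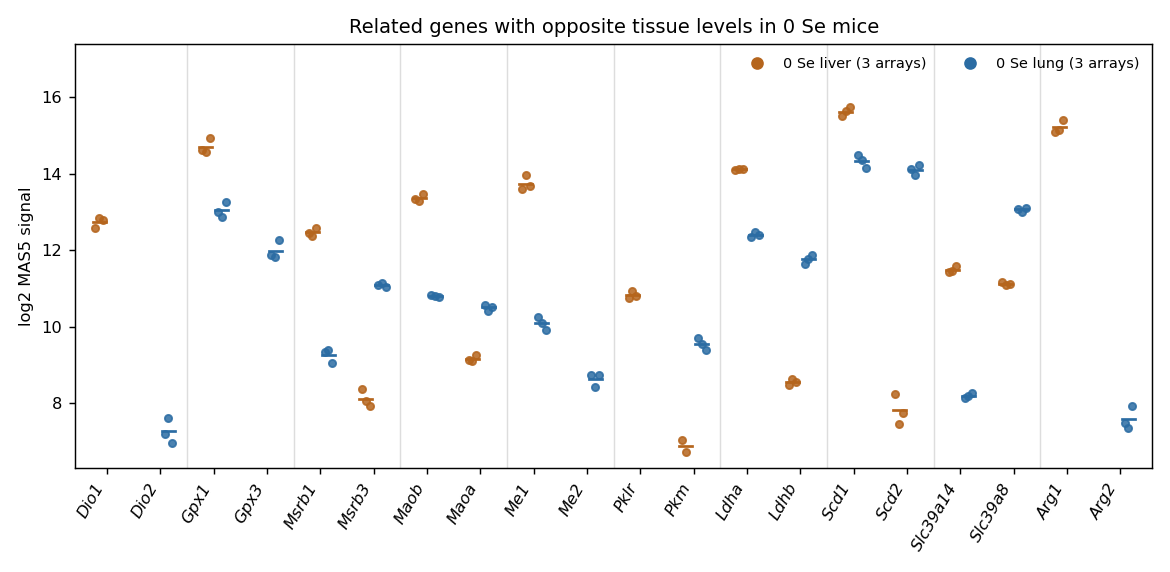
Log2 MAS5 signal (vertical axis) on the 3 arrays of 0 Se liver (brown) and 0 Se lung (blue) for 10 pairs of related genes whose tissue order differs, chosen after their values were seen. Lines are means and a blank cell has no point; levels compare within a gene only, since each probe set has its own response, and Ldha with Ldhb, Maob with Maoa and Slc39a14 with Slc39a8 show opposite orders.

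Mitochondrial genes were mostly higher in liver. Of 66 tested genes of the respiratory chain 64 (97%, against 33.5% of all genes) were higher in liver. Of the 66, 49 were higher there by 2-fold or more, against 16.9% of all genes. Their median was 1.29, against -0.15 over all genes. Uqcrq of complex III was 2.78 ± 0.09 higher. Lung was higher for Cox7c (-0.47 ± 0.15, a call lost after median centring, at -0.24 with an adjusted p of 0.154, and after quantile normalization over the probe sets listed on all 6 arrays, at -0.19 with 0.271) and for Cox7a1, the heart and muscle form of a complex IV subunit, which had liver values of 6.93 and 7.13 and lung values of 7.31, 9.67 and 8.94. The Cox7a1 difference was -1.61 ± 0.53 (adjusted p = 0.019). It was -2.28 without lung array 1, which is the lung array with the lowest cardiac transcripts, -1.10 without array 2 and -1.46 without array 3. The call was lost in that last setting (adjusted p = 0.0577), with a robust trend (0.106) and in the methods' t-test (0.209). The part of cardiac muscle in this value was not tested. In the tricarboxylic acid cycle 18 of 22 tested genes (81.8%, against 33.5% of all genes) were higher in liver, up to 3.03 ± 0.08 for Suclg2. Cs (0.10 ± 0.08) and Mdh2 (0.17 ± 0.10) did not pass and turned sign under both quantile normalizations. Pdk4, which shuts pyruvate out of the cycle, was 1.74 ± 0.37 higher in lung (7.97, 9.41 and 9.49 there), with a range over the alternatives from -2.23 without lung array 1 to -1.48 without lung array 3. The methods' t-test after adjustment did not call it (adjusted p = 0.0536).

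Of 15 tested stress genes 8 (53.3%, against 43.4% of all genes) were higher in lung and 4 (26.7%, against 33.5%) higher in liver, with a median of -0.55. The small heat shock protein Hspb1 had liver values of 8.89 and 9.10 and lung values of 12.73, 13.04 and 13.71 (-4.16 ± 0.23, 17.9-fold). Hspa1a was 1.71 ± 0.44 higher in lung, with a call lost in 2 of 19 alternatives (adjusted p up to 0.0956) and arrays that overlapped (10.15, 10.77 and 12.23 in liver against 12.13, 12.88 and 13.26). The factor Atf4 was 0.91 ± 0.12 higher in lung, and Asns, Atf3 and the cell cycle inhibitor Cdkn1a were listed in lung only. Atf5 was 1.99 ± 0.11 higher in liver. The chaperones Hsp90b1 and Hspa5 and the transcription factor Xbp1, at 0.76, 0.37 and 0.30 toward liver, took the opposite sign after quantile normalization over all listed values (-0.07, -0.25 and -0.45), and Xbp1 also over the probe sets listed on all 6 arrays (-0.05). Hspa5, whose arrays overlapped (adjusted p = 0.0431), kept its call in 8 of 19 alternatives, and Xbp1 kept its call and direction in 15 of 19.

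Probe sets listed in a single tissue were counted apart, because a blank gives no fold. With at least 2 values in one tissue and none in the other, 1253 probe sets were listed in liver only and 5358 in lung only. The liver set was smaller but held more bright probe sets. Mean signals of 12 or more were found for 231 of the 1253 (median 8.34) and for 68 of the 5358 (median 7.84), and 44.5% and 55.4% of the sets had means under 8, near the lower limit of the table. Requiring 3 values left 956 and 4411, and a mean of at least 8 left 695 and 2388.

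The brightest liver-only genes encoded plasma proteins and P450s, led by Apoa1, the protein of high-density lipoprotein (15.84, 15.94 and 16.12), Serpina1c, the protease inhibitor, and Ttr, the carrier of thyroid hormone and retinol. In lung they were Scgb1a1, the secretory protein of club cells (15.64, 15.86 and 16.25), surfactant protein C (Sftpc, 15.32, 15.33 and 15.77), Cbr2, a carbonyl reductase of lung, and Ager, a marker of alveolar type 1 cells. Among genes measured in both tissues, Fbp1, the fatty acid binding protein Fabp1 (336-fold), Orm1 (237-fold) and Hamp (191-fold by its second probe set) led in liver. The Fabp1 fold is also not from its brightest probe set, which gave differences of 6.27 to 7.29 over the settings. Caveolin Cav1 (163-fold), Wfdc2 (136-fold), gelsolin (Gsn, 134-fold) and the matrix protein Ogn (123-fold) led in lung. Some of these folds, like that of Fbp1, rest on values next to the lowest in the table. Examples are Wfdc2 in liver (6.81, 6.90 and a blank) and Orm1 in lung (6.88, 6.87 and 6.72), so their exact size and order are not settled.

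**Figure D4:**
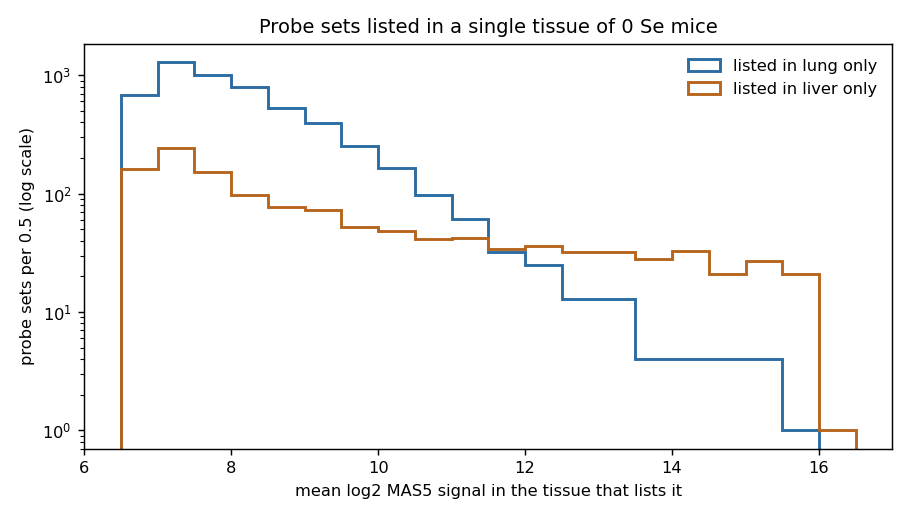
Number of probe sets per 0.5 log2 unit (vertical axis, log scale) against the mean log2 signal in the tissue that lists them (horizontal axis), for the 5358 listed in 0 Se lung only (blue) and the 1253 listed in 0 Se liver only (brown). Lung exceeds liver at low signals, and liver exceeds lung at means of 12 or more, with 231 against 68.

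Some short motifs in promoters differed in frequency between the liver-only and lung-only genes. Matches were sought on both strands in the 250 bases before each RefSeq start, and a gene counted once. The HNF1 motif was present in 16 of 483 liver-only genes with a promoter (3.31%), in 1 of 1722 lung-only genes (0.0581%) and in 0.345% of the 11017 genes on the array, or 0.371% of all 32851 promoters. The 16 included G6pc and Afm, shown above, the coagulation factor F13b, the complement regulator C4bp, Igfbp1 and Prodh2. In G6pc the match ends 212 bases before the start and in Afm 129. TATAAA was found in 16.6% of the liver-only and 9.87% of the lung-only genes and in 9.08% of genes on the array, TGTTTAC (FOXA) in 6%, 2.73% and 3%, and CAAAGTCCA (HNF4) in 1.86%, 0.639% and 0.499%. TTGCGCAA (C/EBP) was found in 0.621%, 0.29% and 0.263%, CACTTGA and CTCAAG (NKX2, which can overlap each other) in 3.31%, 2.85% and 2.35% and in 15.1%, 16.3% and 14.5%, and TGACNNNGC in 12.6%, 13.2% and 13.8%. TATAAA was also present in 7 of 24 selenoprotein genes, among them Sephs2, where it ends 24 bases before the start. Genes tested in both tissues and 16-fold or more higher in one of them were also counted, 94 in liver and 100 in lung with a promoter. TATAAA was found in 20.2% of the liver and 14% of the lung genes, and TGTTTAC in 5.32% and 5%, nearly the same share. The HNF1 motif was found in 1.06% and 0%, CAAAGTCCA in 2.13% and 1% and TTGCGCAA in 0% and 1%. All of these are matches of letters, and binding was not measured.

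The same tissue difference was available in 0.1 Se mice, and whether it differed by diet was tested over the 12 arrays. Of 15112 probe sets none (0%) passed an adjusted p of 0.05 in limma, while 931 (6.16%) had an unadjusted p under 0.05. The smallest p belonged to Iigp1, an interferon-induced GTPase, which was 3.01 higher in liver in 0 Se and 1.53 higher in 0.1 Se (difference 1.48 ± 0.22, adjusted p = 0.147). It was followed by Actr1a (0.08 against -0.74), Fmo2 (-5.83 against -4.66), Ptpn12 (-0.85 against -1.38), Map3k4, which was lower in liver by 1.07 ± 0.22 more in 0 Se than in 0.1 Se, and Rilpl1 (-2.96 against -1.64).

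For 13 of the 15 tested selenoproteins the tissue difference lay lower, that is more toward lung, in 0 Se than in 0.1 Se, as it did for 52.6% of 8223 genes. An unadjusted p under 0.05 was found for 7 of the 15, against 5.97% of these genes, and none of the 15 passed adjustment. Txnrd1 differed by -0.02 between tissues in 0 Se and by 0.66 in 0.1 Se (difference -0.68 ± 0.16, adjusted p = 0.536). For Selenok the values were -0.85 and -0.15 (adjusted p = 0.574), for Txnrd3 -1.33 and -0.59 (adjusted p = 0.61), for Selenow -2.31 and -1.56 (adjusted p = 0.76), for Selenoh -0.55 and -0.02 (adjusted p = 0.76) and for Selenof -0.16 and 0.12 (adjusted p = 0.76). Selenoi went the other way, with 2.03 and 1.69 (adjusted p = 0.806), and so did Msrb1, with 3.21 and 3.08. Gpx1 was 1.66 higher in liver in 0 Se and 1.89 higher in 0.1 Se, a difference of -0.23 ± 0.17. The median over the 15 was 0.15 in 0 Se and 0.66 in 0.1 Se, against -0.15 in both diets over all genes compared. These 2 medians fall on different genes, Selenos in 0 Se and Txnrd1 in 0.1 Se. Taken gene by gene, the median difference between diets was smaller, at -0.23 for the selenoproteins and -0.013 over all genes. Of the 7 tested superoxide and peroxide enzymes all lay lower in 0 Se, with medians of 1.38 and 1.59 and no unadjusted p under 0.05.

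**Figure D5:**
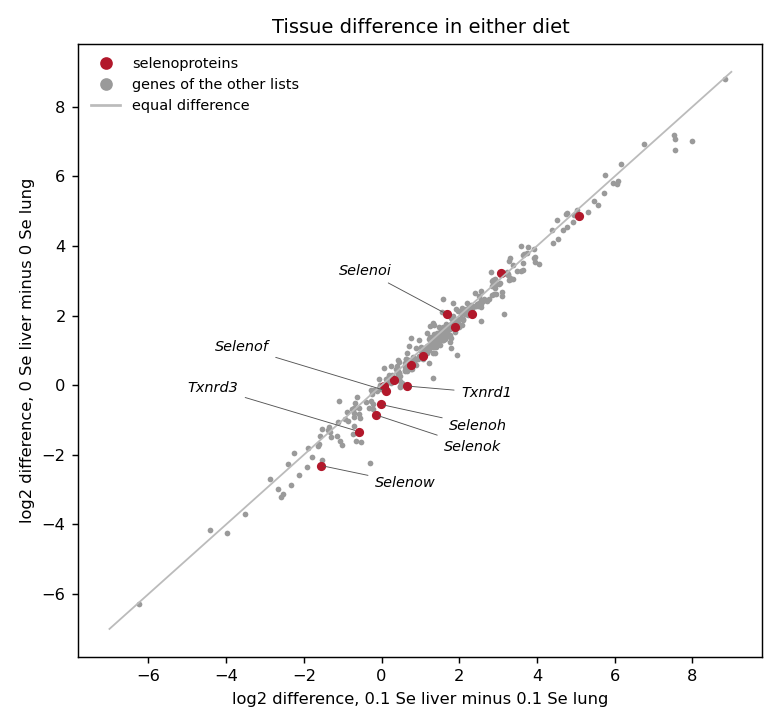
Log2 difference of liver minus lung in 0 Se mice (vertical axis) against that in 0.1 Se mice (horizontal axis) for the tested selenoproteins (red) and the genes of the other lists (grey), with a line of equal difference. Named genes are the 7 selenoproteins with an unadjusted p under 0.05 for the difference between diets; 6 of them, such as Selenow at -2.31 against -1.56, lie below the line and Selenoi above it.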

How the data were processed

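Liver and lung RNA of 0 Se mice was measured on 3 arrays per tissue (RIN over 9 per the labels). The authors computed signals with MAS5, which normalizes each array independently, excluded absent calls and deposited log2 values, from 6.64 (a signal of 100) to 16.4. Tools credited by the submitters' notes on processing are affy 1.36.0 under R 2.15.2. No further scaling was applied, and the 58 control probe sets were left out. The number of arrays limits the precision, since an exact permutation test of 3 against 3 cannot give a two-sided p under 0.1.

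Gene names came from the array annotation, updated through Entrez numbers: a single gene could be given to 24504 probe sets (24434 of them, 99.7%, by number), several to 660 and none to 4245. Genes of the 24 pathway and 22 marker lists took their probe set with the highest mean. Probe sets with at least 2 values per tissue were fitted with limma 3.58.1 (lmFit, eBayes with a trend) in R 4.3.3, Benjamini-Hochberg adjusted at 0.05 over all of them, and the diets were compared as an interaction with 2 values per group. Differences are given with the SE. Named were all measured members of the selenium, peroxide, thioredoxin and glutathione lists, the largest differences of other lists (up to 4 in each direction, with up to 3 that did not pass and up to 4 of a single tissue), the 10 largest of all in each direction, the 10 brightest of each tissue and 6 genes of the diet comparison; the text gives some of these. Other genes it names from the lists, and the motifs and promoters, were chosen after their values were seen. The members and lists were chosen with earlier results of these data known. The fit was tested on simulated data. Alternatives covered scaling, filters, an offset, the eBayes settings, the methods' t-test, a replicate block, the 12 arrays in 1 fit and leaving out each array.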

Additional observations from a re-analysis of the deposited data

How the results depend on the processing

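With blanks at the lowest listed value, 17948 probe sets passed, 11967 of them higher in lung, and 7221 were higher in lung by 2-fold or more. Of probe sets listed in a single tissue, a mean of at least 8 left 3083 (695 in liver, 2388 in lung), and 1 value sufficing gave 1889 in liver. The replicate number as a block gave 11897 called probe sets (4922 higher in liver, 6975 higher in lung) and 3 for the difference between diets, where leaving out 1 array gave 0 to 3 (3 without 0 Se lung array 1, 1 without 0.1 Se liver array 2). Deviations of same-numbered liver and lung arrays correlated by 0.0994, 0.0568 and 0.0997, and each array correlated best with its own number, but the labels do not pair them. Of 221 named genes 171 kept their direction and side of the threshold under every alternative run and 50 did not; of 4103 comparisons 65 lost the call, 47 gained it and 61 turned. The turned values were, after median centring, Txnrd1 0.20, Selenot 0.19, Selenof 0.063, Sars 0.16, Secisbp2 0.13, Ncl 0.073, Txndc12 0.13, Pgd 0.18, Slc11a2 0.064, Atp7b 0.083, Cyp2f2 0.20; after quantile normalization over all listed values, Gpx4 -0.24, Selenos -0.63, Trnau1ap -0.084, Txn1 -0.067, Txnl1 -0.11, Gstm2 -0.32, Idh2 -0.30, Mt2 -0.085, Pfkm -0.17, Lpin2 -0.58, Mdh2 -0.61, Cs -0.48, Hsp90b1 -0.071, Hspa5 -0.25, Xbp1 -0.45, Hspa1b -0.61, Dcn -0.61, with list medians of -0.35 for selenoproteins, -0.084 for selenium uptake and selenocysteine synthesis and -0.022 for metals; and over the probe sets listed on all 6 arrays, Selenos -0.20, Txnrd1 0.10, Sars 0.11, Secisbp2 0.14, Txndc12 0.094, Slc11a2 0.068, Atp7b 0.078, Lpin2 -0.13, Mdh2 -0.18, Cs -0.018, Xbp1 -0.046, Hspa1b -0.20, Dcn -0.17. With blanks at the lowest value the first 2 of those medians were -0.030 and -0.067, and with 3 values per tissue the median for glucose use outside liver was 0.22. Leaving out 1 array, that median ran from -1.08 to 0.11, Txnrd1 from -0.053 to 0.024, Selenot from -0.075 to 0.0203, Sars from -0.12 to 0.0003, Secisbp2 from -0.34 to 0.074, Nnmt from -0.087 to 0.35, Txndc12 from -0.17 to 0.026, Pgd from -0.13 to 0.067, Mt2 from -0.084 to 0.43, Atp7b from -0.23 to 0.038, Pfkm from -0.0897 to 0.11, Lpin2 from -0.15 to 0.34, Cyp2f2 from -0.10 to 0.093 and Hspa1b from -0.057 to 0.29. The cause was not tested. Values near the lower limit of the table, where blanks begin, limit what can be said of weak transcripts.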
